A study of Mus musculus with 8 samples.

Results

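The response of fibroblasts with the YF mutant of STAT5 to growth hormone was measured as the difference between 2 arrays of cells given the hormone for 120 minutes and 2 arrays of cells given none, which are 4 of the 8 arrays of the study. All 45037 probe sets that are not array controls were tested. The cells were mouse embryonic fibroblasts of the C57BL/6 strain that lack Stat5, and every group shares that deletion and carries a STAT5 mutant put back by retrovirus. The YF mutant carries Y694F at the phosphorylation site. The other 4 arrays are of cells with the EA mutant, described as an EE to AA change in the binding domain, without hormone or after 120 minutes of it. Per the series' design text the replication within each group was biological. Cells without a mutant, cells with wild-type STAT5 and an empty vector are not analysed here. The labels give no number of clones or pools, and the hormone's dose is not given in the sources used here.

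Growth hormone binds its receptor and activates the kinase JAK2, which phosphorylates STAT5 on a tyrosine. STAT5 then forms dimers, enters the nucleus and drives genes that include Socs2, Cish and Igf1. NF-kB is a separate family of transcription factors, held in the cytoplasm by inhibitors such as the product of Nfkbia, and in fibroblasts it drives chemokine genes and the genes of its own inhibitors. Immediate early genes such as Fos and Egr1 are switched on within minutes by growth factors through the MAP kinase and SRF pathways, and their RNAs are short-lived.

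The largest rises were those of chemokine genes and of genes listed as NF-kB feedback inhibitors. The 250 bases before the transcription start of 5 of them are therefore shown, from the RefSeq promoter table of GRCm38.p6. The bases are written 5′ to 3′ on the strand of the gene. Capitals mark matches to the NF-kB motif, searched on both strands, where a palindromic element gives 1 match on each strand and overlapping matches are merged in the print. The windows are chr1:83116516-83116765 on the plus strand for Ccl20, chr5:90890995-90891244 (plus) for Cxcl1, chr5:90903649-90903898 (plus) for Cxcl2, chr5:92348890-92349139 (minus) for Cxcl10 and chr12:55492648-55492897 (minus) for Nfkbia.
Ccl20: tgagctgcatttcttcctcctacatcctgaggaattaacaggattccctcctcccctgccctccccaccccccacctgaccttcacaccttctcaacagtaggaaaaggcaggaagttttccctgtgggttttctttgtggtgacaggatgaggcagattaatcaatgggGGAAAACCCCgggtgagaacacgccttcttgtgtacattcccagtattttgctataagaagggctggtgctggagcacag
Cxcl1: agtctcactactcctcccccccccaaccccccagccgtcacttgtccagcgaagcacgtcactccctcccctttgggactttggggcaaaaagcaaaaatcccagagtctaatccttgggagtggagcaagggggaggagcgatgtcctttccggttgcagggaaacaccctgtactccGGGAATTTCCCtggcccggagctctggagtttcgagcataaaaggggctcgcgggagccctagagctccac
Cxcl2: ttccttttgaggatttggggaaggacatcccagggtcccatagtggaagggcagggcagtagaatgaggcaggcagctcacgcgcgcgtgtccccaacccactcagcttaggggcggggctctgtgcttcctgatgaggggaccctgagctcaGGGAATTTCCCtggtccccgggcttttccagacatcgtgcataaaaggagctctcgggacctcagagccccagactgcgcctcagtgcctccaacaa
Cxcl10: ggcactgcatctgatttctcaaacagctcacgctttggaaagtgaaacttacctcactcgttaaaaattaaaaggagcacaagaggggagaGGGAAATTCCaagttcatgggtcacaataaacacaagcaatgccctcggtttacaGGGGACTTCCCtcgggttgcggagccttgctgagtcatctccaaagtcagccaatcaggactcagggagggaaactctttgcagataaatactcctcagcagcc
Nfkbia: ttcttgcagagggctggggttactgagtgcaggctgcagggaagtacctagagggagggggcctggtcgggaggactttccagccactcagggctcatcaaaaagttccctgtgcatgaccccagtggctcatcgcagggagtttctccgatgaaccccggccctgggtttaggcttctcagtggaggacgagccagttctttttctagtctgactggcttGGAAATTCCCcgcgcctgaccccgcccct
In Cxcl1 the matches began 71 and 70 bases before the start, and in Cxcl2 97 and 96 bases before it. Those of Cxcl10 began at 159, 104 and 103 bases, that of Ccl20 at 80 and that of Nfkbia at 29. The motif was found in 2225 of 27025 such windows (8.233%). Of the 25 genes with the largest rises named below, 22 had a window and 9 of these held it: the 5 shown and Tlr2, Kcnn4, Rgcc and Tut4. Among those without it were Bcl3, Zc3h12a, Birc3 and Cx3cl1, which stand in the chemokine or NF-kB feedback inhibitor lists, like the 5 shown. It was in 6 of 18 windows of chemokine genes, 7 of 15 of genes listed as NF-kB inhibitors and 7 of 28 of immediate early genes (25%). Among 12 windows of the 16 genes with the largest falls, 1 held it, that of Fos. The GAS motif of STAT factors, searched in the same way, was in 2197 windows of all genes (8.13%), in 4 of 16 windows of STAT5 target genes and in 2 of the 22 of the rising genes. A match is a description of the letters in this window and not a measured binding site.

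The values are log2 expression values, so a difference of 1 is a factor of 2. Of the probe sets 24773 (55.01%) had a mean below 4, in a dense low group where the scale is unknown, and the size of a change with a side there is uncertain. Such genes are named as having a side in the low group. The first principal component held 69.9% of the variance and separated the EA from the YF arrays. On the second component, with 12.6%, the 2 YF arrays without hormone had scores of 25.8 and 32.6. YF with hormone replicate 2 lay at -3.28 and replicate 1 stood apart at -55.8, and the replicate difference of this group had the largest SD of the 4 (0.336, against 0.230 to 0.291). Results are therefore given with and without YF with hormone replicate 1. Of 13 measured fibroblast markers, 12 lay above the low group in YF cells, among them Col1a1, Vim and Prrx1, and none passed the test. Of 14 macrophage and myeloid markers 12 lay in the low group, with Ptprc and Adgre1 among them. Csf1r had means of 8.40 and 8.97 and Cd68 of 7.66 and 8.28 without and with hormone, and neither passed. The summed log2 levels of that list were 45.8 and 45.0 without hormone and 46.6 and 46.0 with it. By the mean of the 8 arrays all 6 lymphoid, 9 of 10 endothelial, 8 of 9 epithelial, 7 of 9 muscle and 3 of 7 neural markers lay in the low group. None of the markers of these lists passed. The muscle marker Tnnt3 was above it by that mean but lay at 2.08 and 2.06 in YF cells without and with hormone. The epithelial marker Krt19 had 4.61 and 3.77 without and 5.53 and 4.99 with hormone (1.07, SE 0.40, adjusted p = 0.42). The neural marker Tubb3 had 2.49 and 2.28, then 3.58 and 4.30 (1.56, SE 0.23, adjusted p = 0.14). Its means were below 4 in both groups (2.39 and 3.94). Both markers were higher on each array with hormone, but their lists did not share this. In the epithelial list 1 marker was separated upwards and 5 downwards, in the neural list 2 and 3, with medians of -0.04 and -0.05. Of the brighter neural markers Stmn2 had 0.44, and Ncam1, Nes and Map2 had -0.25, -0.34 and -0.05. The part of other cells in the changes given below was not tested.

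With growth hormone 58 probe sets were higher and 23 lower in YF cells at a limma adjusted p under 0.05, which is 0.129% and 0.0511% of all tested. They named 39 genes that rose and 18 that fell. The median size was 1.09 among the rises and 0.91 among the falls, and 37 rises and 10 falls exceeded a factor of 2. The 2 arrays with hormone did not overlap the 2 without in any of the 81, but non-overlap alone was common, with 16% of probe sets separated upwards and 49.3% downwards. Inside the low group 70.6% were separated downwards, against 23.3% above it, and the median change was -0.05 in the low group and 0.05 above it. Of the 81 calls 13 lay in the low group in both YF groups, 15 had 1 side there and 53 lay above it on both sides. A fit without YF with hormone replicate 1 called 84 higher and 15 lower, and 36 of the 81 calls were kept. Without replicate 2 of that group 499 and 176 were called, and 75 were kept. The counts were 16 and 24 without YF replicate 1, and 7 and 8 without YF replicate 2. Without either EA array there were 7 and 1, and without either EA array with hormone 7 and 2. The fit of the 4 YF arrays alone called 1 higher and 0 lower, with 4369 probe sets at an unadjusted p under 0.05 against 5114 over all 8 arrays. Quantile normalization called 37 and 16 and kept 46 of the 81, and centring the arrays on their medians called 38 and 18 and kept 51. The probe sets that passed in all 8 fits without 1 array belonged to Ccl20 and Gda.

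**Figure D1:**
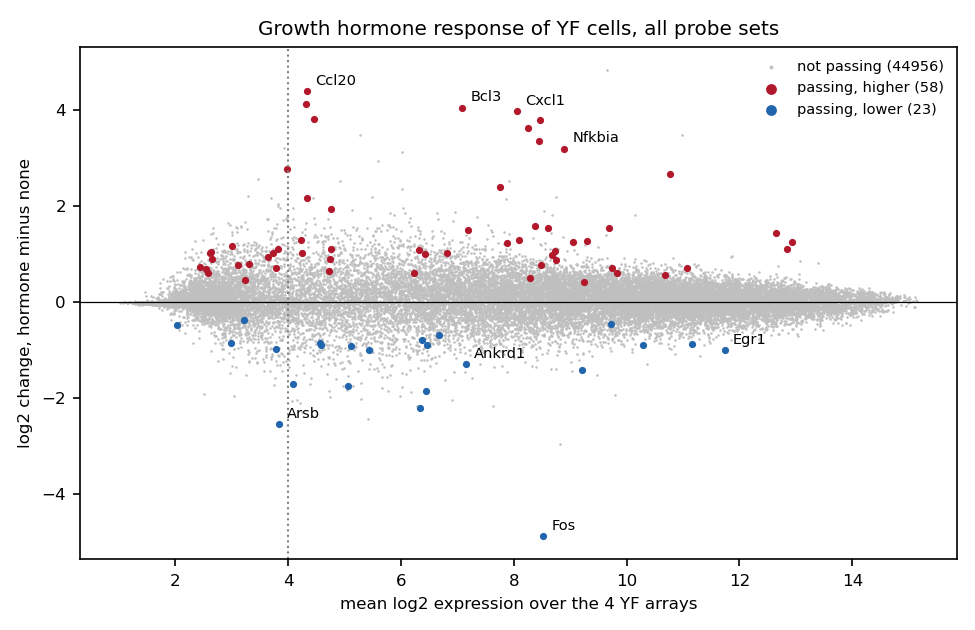
Each point is 1 of the 45037 probe sets, with its mean log2 expression value over the 4 YF arrays on the horizontal axis and its log2 change (hormone minus none) on the vertical axis. The 58 calls above zero are red and the 23 below are blue, the dotted line marks the bound of 4 of the low group, and the rises reach 4.39 (Ccl20) while Fos lies at -4.87.

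Chemokine genes encode secreted proteins that attract leukocytes. Of 26 measured genes of the CC and CXC list 6 rose, 0 fell and 20 did not pass, and at an unadjusted p under 0.05 the counts were 10 and 1. The median log2 change over the list was 0.28, and the arrays of 12 members were separated upwards and of 10 downwards. Of all 18193 genes 3571 were separated upwards and 8064 downwards. For all 18193 genes, each by its brightest probe set, 24 rose (0.132%) and 12 fell (0.066%), the unadjusted shares were 7.62% and 6.48%, and the median was -0.04. The list was chosen with results of these arrays known, so its counts are a description.

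Ccl20, the ligand of the receptor CCR6, had values of 2.15 and 2.13 without hormone and 6.55 and 6.51 with it. The arrays of a group were almost equal and the groups far apart, starting from the low group. Its log2 change was 4.39 (SE 0.03, n = 2 per group, limma adjusted p = 1e-05). Cxcl10, a ligand of CXCR3 known as an interferon target, had 2.19 and 2.32 without hormone and 6.06 and 6.69 with it. It thus rose from the low group by 4.12 (SE 0.27, adjusted p = 0.022). Cxcl1, a neutrophil chemokine, lay at 6.18 and 5.95 without hormone and at 10.06 and 10.02 with it on the probe set of largest change. This was a 15.8-fold rise, with both sides above the low group (3.98, SE 0.15, adjusted p = 0.0074). All 3 Cxcl1 probe sets rose, and the brightest gave 3.36 (SE 0.20, adjusted p = 0.019). Cxcl2, its close relative, had 2.60 and 2.52 without hormone and 6.45 and 6.28 with it, a rise of 3.80 from the low group (SE 0.24, adjusted p = 0.021). Ccl7, a monocyte chemokine, had 6.69 and 6.46 without hormone and 10.30 and 10.41 with it. This rise of 3.78 (SE 0.18, adjusted p = 0.0095) was 13.8-fold. Cx3cl1, a chemokine tethered to the membrane, had 6.27 and 6.63 without and 7.91 and 7.97 with hormone and rose by 1.49 (SE 0.14, adjusted p = 0.048).

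Ccl2, the main monocyte chemokine of fibroblasts, had 6.49 and 8.001 without hormone and 12.14 and 11.998 with it. Its difference of 4.82 was larger than that of any rise that passed, but the 2 arrays without hormone lay 1.5 apart and the test was just missed (SE 0.47, adjusted p = 0.051). Leaving out either YF array without hormone takes that spread out of the test, so those fits cannot decide whether Ccl2 passes. Its changes lay between 4.07 and 5.58 over all 8 fits. Cxcl5 had 9.04 and 9.44 without and 12.49 and 12.94 with hormone, a difference of 3.48 (SE 0.42, adjusted p = 0.094). For Ccl5 the values were 5.24 and 4.44, then 6.60 and 7.79 (2.35, SE 0.45, adjusted p = 0.20). Ccl2, Cxcl5 and Ccl5 were higher on both arrays with hormone. Cxcl12, a chemokine of stromal cells, was high throughout, at 13.82 and 13.73 without hormone and 13.57 and 13.54 with it. Ccl3, Ccl4, Ccl11, Ccl12, Ccl22, Cxcl9, Cxcl11 and Cxcl13 lay in the low group in both YF groups.

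Ccl20 passed without any 1 array, with adjusted p of at most 0.00155 and changes of 4.37 to 4.41. Cxcl1 passed in 6 of the 8 fits and was lost without either EA array with hormone (at most 0.052). Ccl7 passed in 5 (at most 0.067, lost without YF replicate 2 or either EA array with hormone). Cxcl10 passed only without 1 or the other YF array with hormone, and Cxcl2 without YF with hormone replicate 2 or either EA array with hormone, both reaching 0.101. Cx3cl1 passed in none (0.052 to 0.134). Without YF with hormone replicate 1 the changes were 4.37 for Ccl20, 4.43 for Cxcl10, 3.96 for Cxcl1, 3.72 for Cxcl2, 3.84 for Ccl7 and 1.52 for Cx3cl1.

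**Figure D2:**
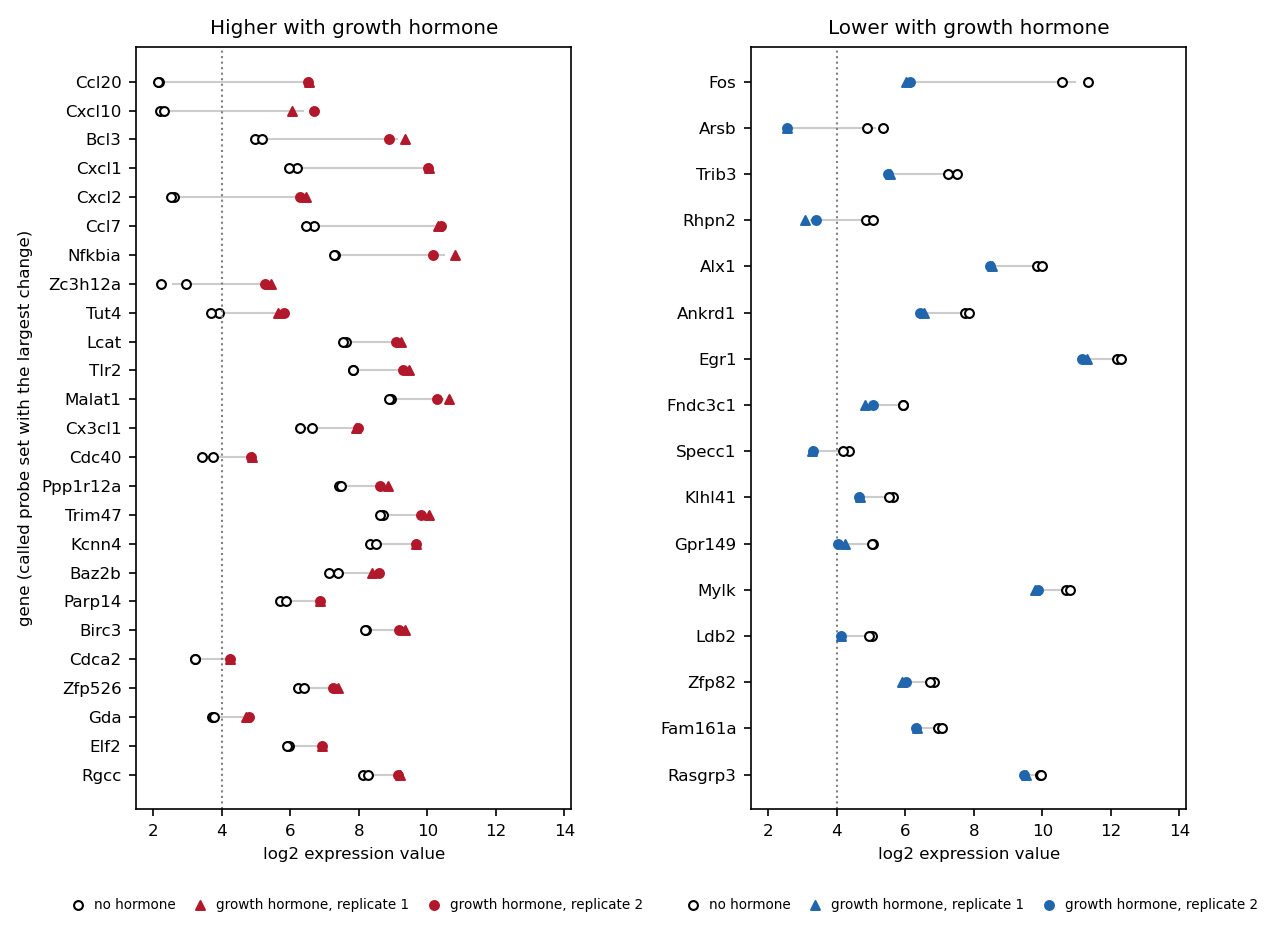
The log2 expression value of each array (horizontal axis) is shown for the 25 genes with the largest rises and the 16 with the largest falls, on the called probe set of largest change. Open circles are the 2 YF arrays without hormone, triangles and filled circles are replicates 1 and 2 with hormone, and the dotted line is the bound of 4, below which 11 of these genes have 1 group; genes whose groups overlap could not be chosen.

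Of 16 measured genes listed as NF-kB feedback inhibitors 4 rose, 0 fell and 12 did not pass on their brightest probe sets. The name is that of the list and does not state that each member only inhibits NF-kB. At an unadjusted p under 0.05 there were 9 higher and 1 lower, and the median was 0.62, beside -0.04 for all genes. Nfkbia encodes the inhibitor IkB-alpha, which binds NF-kB and exports it from the nucleus. Its brightest probe set had 12.32 and 12.28 without hormone and 13.53 and 13.57 with it, a rise of 1.25 (SE 0.06, adjusted p = 0.0095). The groups were separated by far more than the replicates. On the probe set of largest change the values were 7.31 and 7.28, then 10.79 and 10.18, a rise of 3.19 (SE 0.21, adjusted p = 0.022), and all 5 Nfkbia probe sets rose, by 1.10 to 3.19.

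Bcl3 encodes a nuclear IkB protein that binds the p50 and p52 subunits. It had 4.96 and 5.16 without hormone and 9.33 and 8.88 with it, a 16.5-fold rise (4.05, SE 0.21, adjusted p = 0.013). Zc3h12a encodes the RNase regnase-1, which degrades cytokine RNAs. Its values were 2.95 and 2.21 without hormone, in the low group, and 5.45 and 5.27 with it (2.78, SE 0.25, adjusted p = 0.048). Both EA arrays without hormone had the same value of 3.42, and this SD of 0 enters the pooled SE, beside 0.52 for YF without hormone. Birc3, a ubiquitin ligase of the TNF receptor complex, had 8.22 and 8.19, then 9.35 and 9.18, and rose by 1.06 (SE 0.08, adjusted p = 0.027). Of the members that did not pass, Tnfaip3, the ubiquitin editor A20, had a difference of 2.51 (SE 0.30, adjusted p = 0.093). Nfkbie gave 1.90 (adjusted p = 0.11), Nfkbiz 1.81 (0.10) and Nfkbib 0.78 (0.18), while Otud1 lay at -0.79 and Cyld at -0.05. Bcl3 and Birc3 passed without either YF array with hormone and in no other of the 8 fits, with adjusted p of at most 0.071 and 0.131. Zc3h12a passed without YF replicate 1 or YF with hormone replicate 2 (at most 0.131). The brightest Nfkbia probe set was lost without either YF array that had no hormone or either EA array that had it (0.052 to 0.063) and passed in the other 4 fits. Without YF with hormone replicate 1 the changes were 3.82 for Bcl3 and 1.27 for that Nfkbia probe set.

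None of 23 NF-kB subunits and upstream kinases passed, with 5 above and 0 below zero at an unadjusted p under 0.05. The subunit genes Relb and Nfkb2 had differences of 2.14 (adjusted p = 0.20) and 1.35 (adjusted p = 0.12). The kinase genes Ikbkb and Ikbkg lay at -0.14 and -0.12. Of 27 receptor genes 1 rose, Tlr2, the receptor of bacterial lipopeptides. It had 7.84 on both arrays without hormone and 9.47 and 9.30 with it (1.55, SE 0.11, adjusted p = 0.027), but without YF with hormone replicate 1 its adjusted p was 0.072, and it passed only in the fit without replicate 2. The receptor genes had 9 above and 2 below zero at an unadjusted p under 0.05 and a median of 0.14. Il1r1 had 0.64 (SE 0.22), Nod1 0.49 (SE 0.09) and the interferon gamma receptor genes Ifngr1 and Ifngr2 0.61 and 0.86, none of which passed.

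The other inflammatory lists passed rarely. On their brightest probe sets 0 of 33 adhesion and antigen presentation genes, 0 of 26 interferon-stimulated genes and 0 of 21 inflammatory cytokine genes passed in limma. Unadjusted, 6, 3 and 2 were higher and 0, 1 and 0 lower, and the medians were 0.05, 0.00 and -0.03. Vcam1, an adhesion molecule, had a value of -0.16 in YF cells (SE 0.19) and 1.74 in EA cells, but the difference between the mutants did not pass. Irf1, a factor downstream of interferon and NF-kB, had 6.95 and 7.26, then 8.71 and 8.41 (1.45, SE 0.16, adjusted p = 0.076). Lif, a cytokine of the interleukin 6 family, had 0.94 (SE 0.10, adjusted p = 0.069). The high interferon genes Ifit3 and Ifit2 lay at 0.00 and -0.34. Ptges, the prostaglandin E synthase gene, passed higher on a probe set inside the low group alone (0.90), and its brightest gave 0.14 (SE 0.08, adjusted p = 0.53). Parp14, an ADP-ribosyltransferase gene known to be induced by interferon, rose from 5.70 and 5.87 to 6.86 and 6.87 (1.08, SE 0.10, adjusted p = 0.048), but passed in none of the fits without 1 array (0.051 to 0.135).

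**Figure D3:**
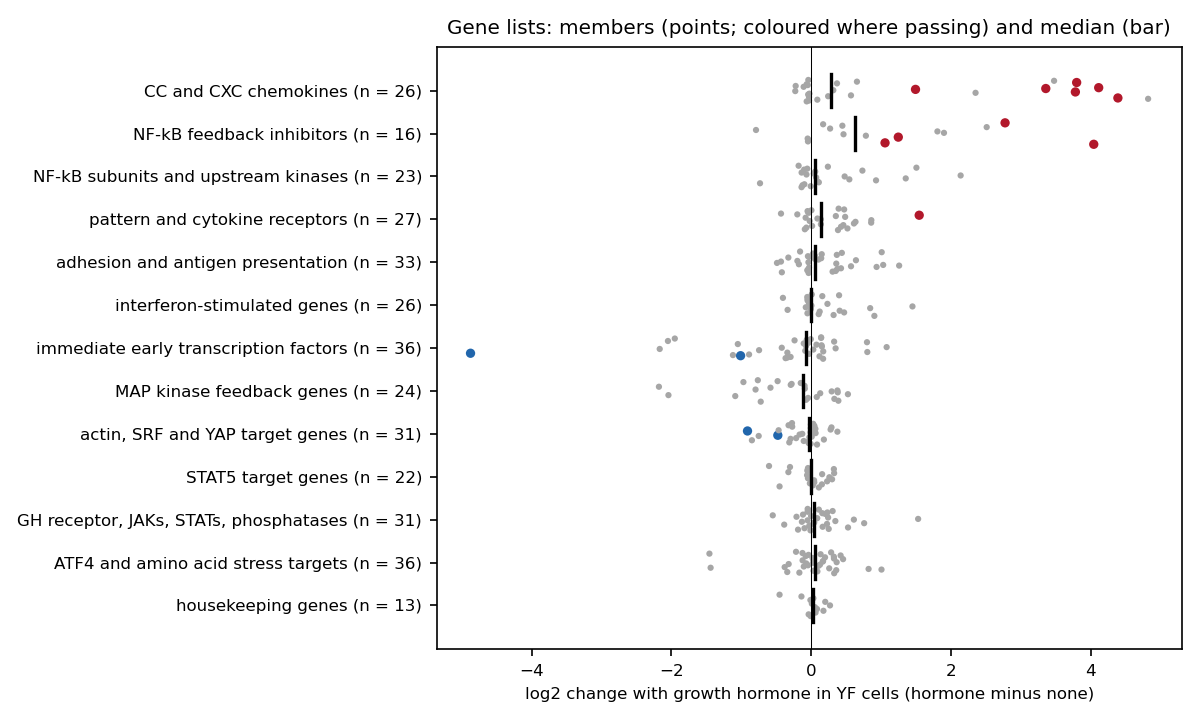
Each point is a gene of 1 of 13 lists, by its brightest probe set, at its log2 change (hormone minus none) in YF cells, and the black bar is the median of the list. Red and blue points passed higher and lower. Among the red are 6 of 26 chemokine genes and 4 of 16 genes listed as NF-kB inhibitors, and among the blue 2 of 36 immediate early genes.

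Fos had the largest fall. This immediate early gene encodes a subunit of the factor AP-1, and it had 10.57 and 11.34 without hormone and 6.03 and 6.13 with it. The groups lay more than 4 log2 units apart, a 29.3-fold fall with both sides above the low group (-4.87, SE 0.28, adjusted p = 0.019). Egr1, a zinc finger factor of the same class, had 12.19 and 12.30 without hormone and 11.30 and 11.17 with it and fell by 1.01 (SE 0.07, adjusted p = 0.026). In all, 2 of 36 measured immediate early genes fell and 0 rose, 12 were lower and 5 higher at an unadjusted p under 0.05, and the median was -0.07. Fos passed without YF replicate 1, without YF replicate 2 or without YF with hormone replicate 2 (at most 0.083 over the 8 fits). Without YF with hormone replicate 1 its change was -4.83 with an adjusted p of 0.053. Egr1 passed without either YF array with hormone and reached 0.107 otherwise.

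Several relatives had values in the same direction that did not pass. Zfp36, which encodes an RNA decay factor, had 10.50 and 11.05, then 8.57 and 9.08 (-1.95, SE 0.27, adjusted p = 0.12). Nr4a1, an orphan nuclear receptor gene, had 4.71 and 5.65, then 2.63 and 3.63 (-2.05, adjusted p = 0.21), and ended in the low group. Both arrays with hormone lay below both without in each. Ier2 gave -2.17 (SE 0.48), Egr2 -1.12 (SE 0.36) and Klf2 -1.05 (SE 0.17). In Ier2 the 2 arrays with hormone differed by 1.5, at 5.98 and 4.43. Its change was -2.94 without replicate 1 and -1.40 without replicate 2, in fits that no longer hold that spread. Other members did not share the direction, with Fosl1 at 0.80, Maff at 0.80, Ier5l at 1.08, Jun at 0.15 and Fosl2 at 0.17. Junb and Fosb lay in the low group throughout.

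MAP kinase feedback genes encode phosphatases and Sprouty proteins that dampen the pathway. None of 24 passed in limma, with 5 above and 8 below zero at an unadjusted p under 0.05 and a median of -0.12. Dusp6, an ERK phosphatase, had 7.70 and 8.16 without hormone and 5.55 and 6.23 with it (-2.04, SE 0.29, adjusted p = 0.12). Dusp1 and Dusp5 gave -0.72 (SE 0.13) and -1.09 (SE 0.19), and Spry1, Spry2 and Spry4 -0.97, -0.48 and -0.76. The arrays of the groups did not overlap in these 6 genes. Over the list 10 of 24 were separated downwards and 6 upwards, beside 8064 and 3571 of all 18193 genes. Dusp7, Dusp10 and Dusp16 lay at 0.53, 0.39 and 0.33. Rgs16, which switches off G protein signals, had 8.74 and 8.68, then 6.66 and 6.41 (-2.18, SE 0.39, adjusted p = 0.18). In EA cells its change was 1.89, but the difference between the mutants did not pass.

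Genes linked to the contractile cytoskeleton were among the falls. Ankrd1, a target of YAP and SRF, had 7.74 and 7.86, then 6.56 and 6.44 on the probe set that fell (-1.30, SE 0.06, adjusted p = 0.0095). Its brightest probe set, at 12.72 and 12.86, then 11.97 and 11.92, gave -0.85 and did not pass (SE 0.23, adjusted p = 0.30). Both probe sets were lower on each array with hormone. Mylk, the myosin light chain kinase gene, had 10.70 and 10.80, then 9.79 and 9.89 and fell by 0.91 (SE 0.06, adjusted p = 0.027). Klhl41, a muscle sarcomere gene, fell by 0.91 (SE 0.07, adjusted p = 0.031), and Edn1, the endothelin gene, by 0.48 inside the low group (SE 0.04, adjusted p = 0.042). Of 31 actin, SRF and YAP target genes, Klhl41 and Edn1 fell on their brightest probe sets and 0 rose, with 6 lower and 0 higher unadjusted and a median of -0.03. The abundant Acta2, Tpm1, Tpm2 and Actg1 had values between -0.03 and 0.09, and Vcl -0.27. Without YF with hormone replicate 1 Mylk, Klhl41 and Edn1 did not pass (0.070, 0.085 and 0.112), and each passed in no other fit than that without replicate 2. Ankrd1 passed without YF replicate 1 or either YF array with hormone (at most 0.066).

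Trib3, a pseudokinase gene of the ATF4 stress response, had 7.25 and 7.50 without and 5.56 and 5.49 with hormone and fell by 1.85 (SE 0.17, adjusted p = 0.048), but passed in none of the 8 fits without 1 array (0.052 to 0.177). Its brightest probe set gave -1.46 and Chac1, another target of that response, -1.44 (SE 0.14, adjusted p = 0.051), both just short of the threshold. Other genes of that list did not share the direction. Of 36, none passed on the brightest probe set, 8 were higher and 3 lower unadjusted, and the median was 0.06, with Nupr1 at 0.37, Atf5 at 0.36 and Asns at 0.09.

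Among the falls outside the lists, Alx1, a homeobox factor of craniofacial mesenchyme, had 9.84 and 9.996, then 8.54 and 8.48 (-1.41, SE 0.07, adjusted p = 0.0095). It passed without YF replicate 1 or either YF array with hormone (at most 0.061). Among genes with a symbol, the other falls outside the lists were smaller or had a side in the low group. A pair of probe sets without a single gene symbol fell by 2.22 and 1.75 with both sides above it. Arsb, a lysosomal sulfatase gene, fell by 2.55 into the low group on a probe set that its brighter ones did not follow (-0.06 and 0.35). Rhpn2 and Specc1 fell by 1.71 and 0.98, also into the low group, and 2 brighter probe sets of Specc1 gave -0.04 and 0.03. Rhpn2 also had -1.19 on its second probe set. Fndc3c1, Gpr149, Ldb2, Zfp82, Fam161a and Rasgrp3 fell by 1.01, 0.91, 0.85, 0.80, 0.68 and 0.46. Over the 8 fits without 1 array Arsb passed in 3, Rhpn2, Fndc3c1 and Gpr149 in 2 and the other 5 in 1, that without YF with hormone replicate 2.

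Among probe sets with 1 gene symbol and both sides above the low group, rises outside the inflammatory lists began with Lcat. Some probe sets without a single gene symbol rose more. Lcat encodes the plasma enzyme that esterifies cholesterol. It had 7.63 and 7.53 without hormone and 9.22 and 9.09 with it (1.58, SE 0.09, adjusted p = 0.019), a rise of 2.99-fold. Kcnn4, a calcium-activated potassium channel gene, had 8.32 and 8.51, then 9.66 and 9.67 (1.25, SE 0.08, adjusted p = 0.021). Trim47, a RING finger gene, had 8.70 and 8.63, then 10.05 and 9.81 (1.27, SE 0.08, adjusted p = 0.024). In all 3 the groups lay apart with both sides above the low group. Lcat and Trim47 passed without either YF array with hormone and in no other fit (at most 0.086 and 0.113), and Kcnn4 without replicate 2 of that group alone, with 0.062 without replicate 1.

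Malat1, a nuclear long non-coding RNA, rose on 1 probe set from 8.94 and 8.89 to 10.63 and 10.27 (1.54, SE 0.13, adjusted p = 0.042). Of its 7 probe sets 6 had values above 0, between 0.53 and 1.54, and the brightest gave 0.81 (SE 0.15, adjusted p = 0.19). Other calls were not shared by brighter probe sets of the same gene. Tut4 rose by 1.93 from the low group, while its brightest probe set gave -0.59 (adjusted p = 0.38). For Ppp1r12a the called probe set gave 1.28 and the 3 others -0.52 to -0.20. For Rgcc the values were 0.98 and -0.07, for Baz2b 1.22 and 0.64 on its 2 rising probe sets and -0.16 on the brightest, and for Cdc40 1.28 (from the low group) and -0.09. Elf2 had 1.001 and 0.16, and Cdca2 and Gda, both from the low group, had 1.02 and 1.01 beside 0.53 and 0.24. Zfp526 rose by 1.02. Without 1 array Elf2 and Cdca2 passed in 5 of the 8 fits, Cdc40 in 3, Malat1, Rgcc and this Gda probe set in 2 and Tut4, Ppp1r12a, Baz2b and Zfp526 in 1, while a Gda probe set inside the low group (1.17) passed in all. Over all 57 called genes the brightest probe set passed in 36. Where a called gene had at least 2 probe sets above the low group in YF cells, which held for 27 genes, all of these had the same sign in 16.

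**Figure D4:**
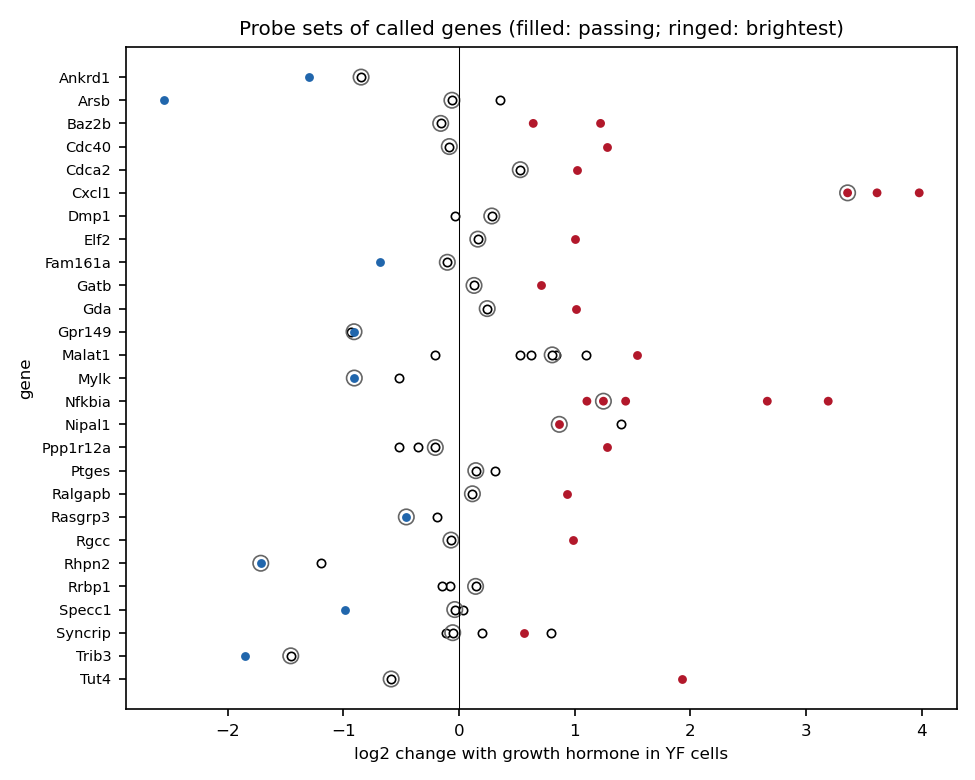
For each of the 27 called genes with at least 2 probe sets above the low group in a YF group, every such probe set is placed at its log2 change with hormone. Filled points passed (red higher, blue lower), rings mark the brightest probe set, and for Dmp1, Ptges and Rrbp1 the called probe set lies in the low group and is not drawn; the 3 of Cxcl1 and 5 of Nfkbia are filled, while those of Ppp1r12a fall on both sides of 0.

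Genes of the growth hormone pathway itself did not pass in YF cells. The receptor gene Ghr was abundant, at 13.95 and 14.02 without hormone and 13.97 and 13.98 with it, and its 95% interval of the change was -0.12 to 0.10. Jak2 had a change of -0.03, and Stat5a had 7.95 and 7.82, then 8.51 and 7.87. Of 31 genes of receptor, kinases, STATs and phosphatases 0 passed in limma, with 3 higher and 1 lower unadjusted. The adaptor gene Sh2b2 had 1.53 from the low group (adjusted p = 0.18) and Ptpn2, a phosphatase gene that acts on JAKs and STATs, 0.35 (SE 0.05, adjusted p = 0.12). Of 22 STAT5 target genes 0 passed as well, with 3 higher and 1 lower unadjusted and a median of 0.00. Socs2, a feedback inhibitor of the receptor, had on its brightest probe set 7.10 and 6.25 without hormone and 6.65 and 6.08 with it, so the groups overlapped and the change of -0.30 had an interval of -1.15 to 0.55. Another Socs2 probe set, in the low group in both YF groups, had 2.37 and 2.73, then 3.14 and 2.77, a change of the opposite sign that did not pass either (0.40, interval -0.01 to 0.82). In EA cells these probe sets changed by 4.84 and 5.51. Bcl6, a repressor gene that STAT5 lowers, had 12.28 and 12.15, then 12.29 and 12.19, with an interval of -0.14 to 0.19. Cish lay in the low group on all but 1 array, and its interval was -0.49 to 0.58. Igf1, the main growth effector of the hormone, had 9.55 and 9.49, then 9.95 and 9.62 on its brightest probe set. These intervals bound the changes that 2 arrays per group could miss, and they do not show that the hormone had no effect on these genes.

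Large differences that missed the threshold were also found outside these lists. Marchf7, a ubiquitin ligase gene, had 2.44 and 2.22, in the low group, and 5.17 and 5.90 with hormone (3.20, adjusted p = 0.059). Slco4a1, an organic anion transporter gene, had 4.37 and 3.87, then 6.96 and 7.14 (2.93, SE 0.30, adjusted p = 0.060). The groups did not overlap in either. Angptl4, an inhibitor of lipoprotein lipase, had 4.78 and 4.12, then 6.93 and 8.23 (3.13, SE 0.78, adjusted p = 0.27). Some rested on 1 array. Pitx1 and Smarca2 had 6.07 and 5.24 on YF with hormone replicate 1 but 3.44 and 3.56 on replicate 2, and Chaserr, a long non-coding RNA, 3.22 and 5.18. Without replicate 1 their changes were 1.25, 1.37 and -1.47. Pdgfb, a growth factor gene, had 1.33 (SE 0.13, adjusted p = 0.054) and the metallothionein gene Mt2 1.39 (SE 0.18, adjusted p = 0.10).

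The remaining lists held few calls or none. In limma 0 genes passed on the brightest probe set of the IGF system (14 genes), the unfolded protein response (19), heat shock proteins (12), oxidative stress (13), hypoxia and glycolysis (19), p53 targets (17) and sterol synthesis (21). The same held for DNA replication (23), mitosis (23), growth factors (26), the TGF-beta pathway (25), extracellular matrix (28) and housekeeping genes (13). At an unadjusted p under 0.05 the highest counts among these were 5, for higher mitosis, growth factor and matrix genes. Ube2c, Kif20a and Cdk1 of mitosis had 0.26, 0.42 and 0.28, and the matrix genes Col6a1, Col6a2 and Mmp14 0.26, 0.30 and 0.42. The chaperone gene Hspa1a had -1.004 (SE 0.19, adjusted p = 0.19). The housekeeping median was 0.03. Of 14 RNA decay genes Zc3h12a alone passed on the brightest probe set, and of 11 short-lived or RNA quality transcripts Fos alone.

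The same contrast in EA cells shows which of these changes were seen with the other mutant. There 42 probe sets passed higher and 19 lower (0.0933% and 0.0422%). Both responses use their own arrays but share 1 estimate of the spread of each probe set. In the higher direction 16 probe sets passed in both, which is 27.6% of the YF calls and 38.1% of the EA calls, and they included those of Ccl20, Ccl7, Cxcl1, Cxcl10, Nfkbia, Birc3, Tlr2, Trim47 and Nipal1. In the lower direction limma called 0 in both, but 7 of the 23 YF falls had an EA change in the same direction at an unadjusted p under 0.05. Changes in YF and EA cells were 4.12 and 4.02 for Cxcl10, 3.98 and 3.93 for Cxcl1, 1.55 and 1.64 for Tlr2, 1.06 and 1.05 for Birc3 and -1.85 and -1.88 for Trib3. Bcl3 had 4.05 in YF and 2.19 in EA cells and Fos -4.87 and -2.34, but the differences of 1.86 and -2.53 did not pass (adjusted p = 0.23 for both). Of the 81 YF calls 36 rises and 20 falls had an EA change under 0.5 in size. Among them Lcat had 0.13 in EA cells, Kcnn4 0.14, Malat1 0.24, Alx1 -0.25, Ankrd1 -0.01 and Mylk -0.09. The Ankrd1 probe set lay in the low group in EA cells without and with hormone (2.33 and 2.32), where a fall could hardly show. The same held for the called probe sets of Arsb, Rhpn2, Fndc3c1, Gpr149, Ldb2 and Dmp1, at 2.47 to 2.91 in EA cells without hormone. The share of all probe sets with so small an EA change is not given here, nor the share with an EA fall at that unadjusted p. Both counts therefore only describe the calls, and they do not show a difference between the mutants.

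The test of the difference itself passed for 9 probe sets (0.02%), and 5 of these were YF calls. Ccl20 rose less in YF than in EA cells, by 1.44 (SE 0.05, adjusted p = 0.022). Elf2 had 1.001 in YF and -0.04 in EA cells, a difference of 1.04 (adjusted p = 0.025), while its brightest probe set had a difference of -0.07 (SE 0.31). Gda, Cdca2 and Dmp1 had differences of 1.16, 1.05 and -0.88. The probe sets of Gda and Dmp1 lay inside the low group on every array, and that of Cdca2 lay above it in YF cells with hormone alone. The brightest probe sets of these genes had 0.21, 0.76 and 0.57, none of which passed. For the rest of the YF calls a difference between the mutants was not shown, and Lcat, Kcnn4, Alx1 and Ankrd1 had adjusted p of 0.10, 0.11, 0.088 and 0.059. The other 4 probe sets that passed in the difference were those of Socs2, Bcl6, Ch25h and Opn1sw, all of which passed in EA and none in YF cells. The fits without YF replicate 2 or EA replicate 2 had 0 calls (limma), those without EA or YF replicate 1 had 1 and 3, without EA with hormone replicate 1 or 2 48 and 15, and without YF with hormone replicate 1 or 2 8 and 201.

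**Figure D5:**
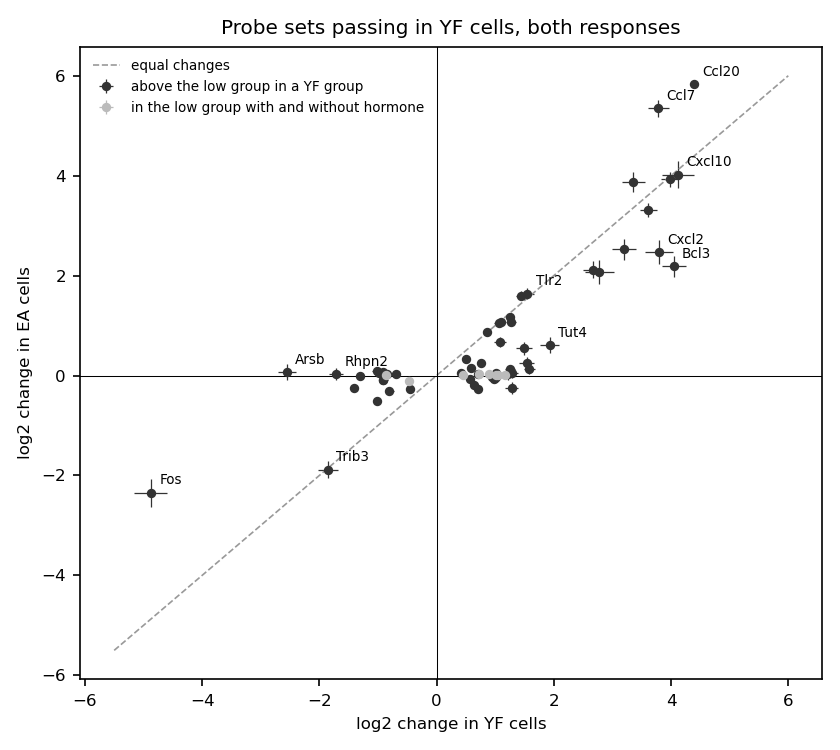
Each point is 1 of the 65 probe sets with 1 gene symbol among the 81 that passed in YF cells, and the others are not drawn. The log2 change in YF cells is on the horizontal axis and that in EA cells on the vertical axis, with lines of 1 SE. Cxcl10 and Trib3 lie on the dashed line of equal changes, Ccl20, Ccl7 and Fos above it and Bcl3 below it, while most smaller changes lie near 0 in EA cells; grey points are in the low group in both YF groups.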

How the data were processed

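RNA was measured on 8 Affymetrix arrays in 4 groups of 2, with each array's group and number taken from its own label. The deposited table holds a log2 expression value for each probe set and array. GCOS and RMA are named in the submitters' processing notes, without a version. The order of these steps is not given in the sources used here, nor are their options. No further normalization was applied to the authors' log2 values, whose medians were 2.85 to 2.94, and no detection calls were used. Of 45101 probe sets 64 controls were left out. Of the rest 34945 had 1 gene symbol in the platform annotation, 932 several and 9160 none, and no gene was named from the latter 2 kinds. The gene table of GRCm38.p6 matched 34741 and changed 0 symbols.

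Differences were tested two-sided with limma 3.58.1 (R 4.3.3; lmFit and eBayes) on 4 group means over all 8 arrays, with 4 residual degrees of freedom and a prior of 1.26. P-values were adjusted by Benjamini-Hochberg over 45037 probe sets, with a threshold of 0.05, and this fit, or a refit where an array is left out, gave every adjusted p. SE is the moderated standard error. A lone array left in a group is assumed to vary like the other groups. Where the array left out made up much of a group's spread, a pass without it is therefore no support. P-values rest on the spread between the 2 arrays of a group, pooled over the 4 YF and EA groups and moderated by the prior. Precision is limited by the number of arrays. The code was tested on simulated data.

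Named genes were those with up to 25 rises and 20 falls of the largest size among calls with 1 symbol where the 2 YF groups did not overlap and the higher mean was at least 4. Passing list members, members of 5 lists given by value, up to 5 of the highest in each other list, calls in the difference and up to 15 misses with an absolute change over 2 were added. Genes and probe sets outside this rule were chosen after their values were seen: the 2 falling probe sets without a gene symbol, the markers Krt19 and Tubb3 and the list members Irf1, Pdgfb, Mt2, Chac1, Hspa1a, Nod1, Il1r1, Ifngr1, Ifngr2, Relb, Nfkb2, Ptpn2, Sh2b2, Jak2, Stat5a, Atf5, Ube2c, Kif20a, Col6a1, Col6a2 and Mmp14. A gene stands in its list by its probe set of highest mean. There were 28 pathway lists with 630 of 677 entries measured and 7 marker lists with 68 of 71. The members and lists were chosen with earlier results of these data known. Alternatives were quantile normalization, median centring, 2 filters on low values, the YF arrays alone, a replicate block, trended and robust eBayes, and leaving out each array.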

Additional observations from a re-analysis of the deposited data

Results flagged for a closer look

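The hormone response differed between YF and EA cells, by limma's test of that difference (adjusted p under 0.05), on 9 probe sets. The YF response minus the EA response was -5.11 for Socs2, 1.85 for Bcl6, -1.82 for Ch25h (a cholesterol hydroxylase gene), -1.44 for Ccl20 and 1.04 for Elf2. For probe sets inside the low group on every array it was 1.17 for Opn1sw, 1.16 for Gda and -0.88 for Dmp1. For Cdca2, above the low group in YF cells with hormone alone, it was 1.05. The Socs2 and Ccl20 values are also of probe sets with a side in the low group. For Socs2, Bcl6, Ch25h, Opn1sw and Ccl20 the larger change was in EA cells, at 5.51, -1.82, 2.16, -1.22 and 5.83. Brighter probe sets did not pass, with -5.15 for Socs2, -0.07 for Elf2, 0.21 for Gda, 0.76 for Cdca2 and, with the opposite sign, 0.57 for Dmp1.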

How the results depend on the processing

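Under quantile normalization 37 probe sets were higher, and with the arrays centred on their medians 38, against 58 as reported. These kept 46 and 51 of the 81 calls. With a mean of at least 4 the difference between the mutants had 0 calls, above the median level 1, and with trended eBayes 20, against 9. The 4 YF arrays alone gave 1 higher and 0 lower in limma, with 4369 probe sets at an unadjusted p under 0.05. With the replicate number as a block 16 were higher, 5 lower and 0 passed in the difference, and the pairing is by number alone (deviations of same-numbered arrays correlated at 0.12 in YF and -0.21 in EA cells). When the block's numbers were crossed in EA cells, an alternative chosen after seeing the data, these counts were 1, 0 and 0. Leaving out 1 array gave 7 to 499 higher, 1 to 176 lower and 0 to 201 in the difference. All other counts were within 1.5 times those reported. Of 65 named probe sets 46 passed, and none of these reversed its direction under an alternative. A call was lost in 443 of 1083 comparisons over all 65. These include comparisons of the 19 that did not pass and had no call to lose, so the share lost among the 46 was larger. Ccl20 passed under all 17. No value inside the low group has a known scale, which limits the size of 28 of the 81 calls, and 2 arrays per group limit all of them.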
